A study of Mus musculus with 9 samples.

Results

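The genes described here are 5 mitochondrial proteins with a form made mainly in male germ cells and 5 widely expressed somatic counterparts. The testis forms are Pdha2, Cyct, Slc25a31, Cox6b2 and Cox8c. The somatic partners are Pdha1, Cycs, Slc25a4, Slc25a5 and Cox6b1. They were found by an exact match of the gene symbol in the array's probe table, and all 10 were measured, on 14 array rows, among 19935 genes. Whole testis was taken from untreated male Swiss albino mice, described as an inbred line of the animal house, at 8, 16 and 24 days of age. Each age had 3 arrays, called biological replicates by the submitters, and RNA from each was hybridised to an Affymetrix whole-transcript array. No label says whether the testes of several animals were pooled. The p-values therefore set differences between ages against the spread of arrays within an age, which need not be that between animals. The deposited values were read as log2 values centred on the median array of each row. Both the log base and the centring were inferred from the values. A value of 1 therefore means a signal 2-fold above that row's median array, and the values hold no level by which genes could be ranked against each other. Arrays are named below by age and replicate 1 to 3, where replicate 3 is the array whose title carries no number.

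Pyruvate from glycolysis enters the citric acid cycle through the pyruvate dehydrogenase complex, whose E1 alpha subunit is encoded by X-linked Pdha1 and by autosomal Pdha2. Cytochrome c, made from Cycs or Cyct, carries electrons to cytochrome c oxidase, where subunits such as COX6B and COX8 surround the catalytic core. The carriers SLC25A4, SLC25A5 and SLC25A31 exchange ADP for ATP across the inner membrane. During the first wave of spermatogenesis the germ cells of the mouse testis pass from spermatogonia into meiosis and then become round spermatids, and the X chromosome is transcriptionally silenced in pachytene spermatocytes. Meiotic and later germ cells carry their own forms of several metabolic enzymes, many of them autosomal copies of X-linked genes.

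Upstream sequence was available for 9 of the 10 genes in the RefSeq promoter set (GRCm38.p6), which held 32851 promoters. The 250 bases before the annotated start are shown 5′ to 3′ on the gene's own strand for Pdha2, Cyct and Cox6b2, which rose together, for Slc25a31, which did not, and for the somatic Cycs as a contrast to Cyct. Capitals mark matches on either strand to the 6 motifs searched. These were the CRE palindrome TGACGTCA (1.55% of all promoters), the shorter core TGACG contained in it (17.8%), the E-box CACGTG (6.02%), the CCAAT box CCAAT (33.8%), the TATA-like TATAAA (12.4%) and the E2F-like TTCCCGC (3.82%). The windows lie at chr3:141212356-141212605 for Pdha2 (minus strand), chr2:76360454-76360703 for Cyct (minus), chr7:4753095-4753344 for Cox6b2 (minus), chr3:40708621-40708870 for Slc25a31 (plus) and chr6:50566570-50566819 for Cycs (minus).
Pdha2: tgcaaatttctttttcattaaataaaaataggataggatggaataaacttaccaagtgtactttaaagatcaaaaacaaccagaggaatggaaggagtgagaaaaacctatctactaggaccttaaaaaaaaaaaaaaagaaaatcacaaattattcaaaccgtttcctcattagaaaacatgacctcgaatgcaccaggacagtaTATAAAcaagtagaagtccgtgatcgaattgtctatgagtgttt
Cyct: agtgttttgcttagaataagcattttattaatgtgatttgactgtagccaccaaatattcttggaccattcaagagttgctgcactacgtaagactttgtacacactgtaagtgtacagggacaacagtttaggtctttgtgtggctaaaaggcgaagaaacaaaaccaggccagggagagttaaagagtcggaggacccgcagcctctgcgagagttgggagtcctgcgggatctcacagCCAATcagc
Cox6b2: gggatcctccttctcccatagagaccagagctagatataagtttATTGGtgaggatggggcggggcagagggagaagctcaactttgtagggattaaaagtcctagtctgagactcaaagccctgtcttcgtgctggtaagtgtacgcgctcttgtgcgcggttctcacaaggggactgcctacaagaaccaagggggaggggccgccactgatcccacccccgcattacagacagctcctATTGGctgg
Slc25a31: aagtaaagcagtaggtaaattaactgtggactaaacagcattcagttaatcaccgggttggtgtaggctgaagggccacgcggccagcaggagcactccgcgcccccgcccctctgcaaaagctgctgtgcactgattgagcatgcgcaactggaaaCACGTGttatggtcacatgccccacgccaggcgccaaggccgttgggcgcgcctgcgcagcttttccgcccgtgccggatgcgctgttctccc
Cycs: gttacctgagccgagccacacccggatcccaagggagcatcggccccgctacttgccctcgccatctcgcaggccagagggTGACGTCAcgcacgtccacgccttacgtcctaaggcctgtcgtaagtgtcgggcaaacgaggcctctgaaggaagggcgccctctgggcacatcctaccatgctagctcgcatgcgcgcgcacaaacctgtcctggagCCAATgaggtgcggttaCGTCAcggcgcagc
Pdha2 held TATAAA 44 bases before its start, Cyct a CCAAT box at 9 bases and Cox6b2 CCAAT boxes at 206 and 9 bases. No motif of the 6 was common to these 3 genes. Slc25a31 held the E-box at 93 bases, and Cycs held the CRE at 169 bases, a TGACG core outside it at 14 bases and a CCAAT box at 31 bases. Of the windows not shown, Slc25a4 held CCAAT boxes at 112 and 56 bases, Cox6b1 a TGACG core at 212 bases and CCAAT boxes at 177 and 74 bases, and Pdha1 and Slc25a5 none of the 6 motifs. The windows also differed in CpG count, against a median of 6 over all promoters. Pdha2 had 4 CpG, Cyct 6 and Cox6b2 8, whereas Slc25a31 had 18. The 5 somatic genes had 14 to 23 CpG, with Cycs the highest, so Slc25a31 stood with the somatic partners by this measure. A match describes these letters and not a bound site.

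The age groups carried the germ cell markers of the first wave. All 8 spermatocyte markers measured rose from 8 to 16 days, where 10.4% of all genes rose. All 7 spermatid markers rose from 16 to 24 days, where 13.2% of all genes did. The medians of the spermatocyte list over single arrays were -2.68 to -2.39 at 8 days, -0.02 to 0.34 at 16 days and 0.19 to 0.59 at 24 days. Those of the spermatid list lay between -0.28 and 0 at 8 and 16 days and between 3.75 and 4.77 at 24 days. From 8 to 24 days all 7 spermatogonial markers, 5 of 6 Sertoli cell markers and all 5 markers each of Leydig cells, myoid cells and endothelium fell, where 35.2% of all genes fell. None of 4 epididymal markers passed the test in any comparison, nor did either of 2 blood markers, where 24.7% to 54.4% of all genes were called. From 8 to 24 days 2 each of 7 skeletal muscle, 5 macrophage and 4 brown fat markers fell, beside the same 35.2% of all genes. These shifts run alongside the results below, and their part in them was not tested. In whole tissue, fewer cells of a type and less RNA per cell cannot be told apart. The arrays of 8 days replicate 1 and 16 days replicate 2 stood apart from the rest. In both, the median of 1027 olfactory receptor genes was 0.17, against -0.05 to 0.03 in the other 7. Among the 3 arrays of 16 days, replicate 2 was also the highest for 3 of the 5 testis forms and the lowest for all 5 somatic partners. At 24 days replicate 2 was the highest for all 5 partners. At 8 days replicate 2 was the highest for 4 partners and replicate 1 the lowest for 4. The partners thus tended to move together from array to array within an age.

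**Figure D1:**
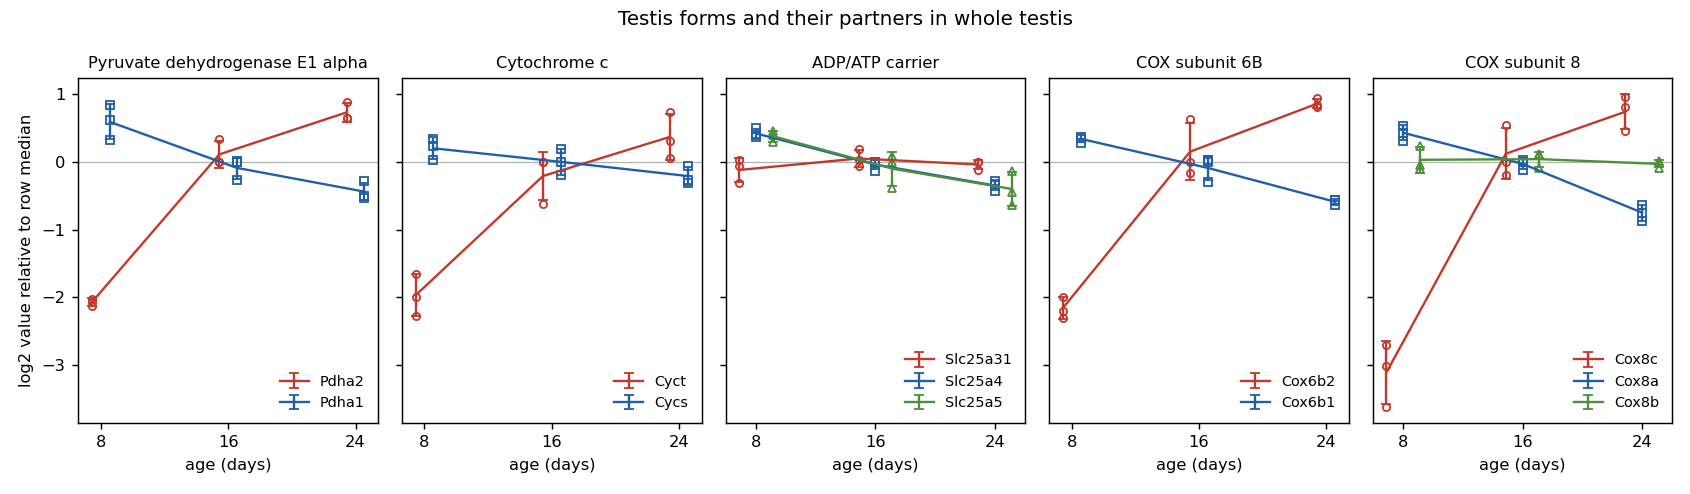
Centred log2 value (y axis) of the 10 genes, and of Cox8a and Cox8b beside Cox8c, in each array at 8, 16 and 24 days (x axis), with points for single arrays, lines for the mean of each age and bars for the SD of 3 arrays. Pdha2, Cyct, Cox6b2 and Cox8c climb steeply from 8 to 16 days, Slc25a31 is flat and the 5 somatic partners slope downward. Cox8a also slopes downward and Cox8b is flat.

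From 8 to 16 days, 4 of the 5 testis forms rose, where 10.4% of all genes rose, and 4 of the 5 somatic partners fell, where 14.3% of all genes fell. From 16 to 24 days the counts were 2 rising testis forms (13.2% of all genes rose) and 2 falling partners (20.1% fell). Over the whole span from 8 to 24 days 4 testis forms rose (19.2% of all genes) and all 5 partners fell (35.2%). The testis forms changed by a median of 2.19, 0.61 and 2.80 on the log2 scale in these comparisons, and the partners by -0.46, -0.31 and -0.78. The medians over all genes were -0.02, -0.16 and -0.18. In either direction 24.7%, 33.3% and 54.4% of all genes were called in the 3 comparisons. Single arrays told the same ages apart without overlap for 4, 3 and 4 testis forms and 4, 3 and 5 partners, where 36.2%, 55.6% and 65.5% of all genes had no overlap. Centring each array on its own median raised the change from 8 to 24 days by 0.12 for every gene. With that centring 4, 2 and 4 testis forms rose, 3, 1 and 4 partners fell, and the split of all genes called moved. From 16 to 24 days it was 2861 higher and 1927 lower, against 2641 and 4004 without centring, and from 8 to 24 days 4389 and 5236, against 3825 and 7015. Without the 2 arrays that stood apart 4, 3 and 4 testis forms rose and 3, 5 and 5 partners fell. With blank cells left missing the counts were 4, 0 and 4 testis forms and 3, 1 and 5 partners, so that no testis form rose from 16 to 24 days under that setting.

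In the E1 alpha pair the testis form rose and the somatic form fell. Pdha2, the intronless autosomal copy on chromosome 3 (gene ID 18598), read -2.13, -2.07 and -2.02 in the 3 arrays of 8 days, 0, 0.34 and 0 at 16 days and 0.65, 0.89 and 0.64 at 24 days. At 16 days replicates 1 and 3 were blank cells read as 0, which leaves 0.34 as the only deposited value of that age. With blanks so read, the 3 ages did not overlap. Pdha2 rose 4.55-fold from 8 to 16 days (2.19 ± 0.11 SE on the log2 scale, limma adjusted p = 1.12e-06) and a further 1.53-fold from 16 to 24 days (0.61 ± 0.11, adjusted p = 0.00371). X-linked Pdha1 (gene ID 18597), the partner present in somatic cells, read 0.32, 0.84 and 0.62 at 8 days, 0.00, -0.27 and 0.00 at 16 days and -0.50, -0.29 and -0.54 at 24 days. Its ages did not overlap either, in the opposite order. Pdha1 fell 1.60-fold from 8 to 16 days (-0.68 ± 0.14, adjusted p = 0.0062), and its change of -0.36 ± 0.14 from 16 to 24 days did not pass (adjusted p = 0.0776). Without 16 days replicate 2 that later change was -0.45 and passed (adjusted p = 0.0435), as it did without 8 days replicate 1 (-0.36, adjusted p = 0.0357). With blank cells left missing, the rise of Pdha2 from 16 to 24 days was 0.38 and did not pass (adjusted p = 0.0939). Between 8 and 24 days Pdha2 rose 6.96-fold (adjusted p = 6.35e-08) and Pdha1 fell 2.05-fold (adjusted p = 0.000144).

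Cytochrome c showed a rise of the testis form with a smaller and less certain fall of the somatic form. Cyct on chromosome 2 (gene ID 13067), the cytochrome c of meiotic and later germ cells, read -2.27, -1.66 and -2.0 at 8 days, -0.62, 0 and 0 at 16 days and 0.31, 0.74 and 0.06 at 24 days. The 3 ages did not overlap, though the arrays of each age spread more widely than those of Pdha2. Cyct rose 3.40-fold from 8 to 16 days (1.77 ± 0.23, adjusted p = 0.000397), and its change of 0.58 ± 0.23 from 16 to 24 days did not pass (adjusted p = 0.0736). Over the whole span it rose 5.08-fold (2.35 ± 0.23, adjusted p = 1.52e-05). Cycs on chromosome 6 (gene ID 13063), the somatic form that also triggers apoptosis once released from mitochondria, read 0.03, 0.34 and 0.24 at 8 days, 0, -0.19 and 0.19 at 16 days and -0.27, -0.06 and -0.31 at 24 days. Neighbouring ages overlapped, and 8 and 24 days did not. Neither shorter interval passed for Cycs (-0.20 ± 0.13, adjusted p = 0.316, and -0.21 ± 0.13, adjusted p = 0.203), and its 1.34-fold fall from 8 to 24 days did (-0.42 ± 0.13, adjusted p = 0.0171). That fall did not pass once each array was centred on its own median (-0.30, adjusted p = 0.113) or without replicate 2 or 3 of 8 days or replicate 1 or 3 of 24 days (adjusted p = 0.0515 to 0.0639).

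The value of Cycs is a mean of 3 array rows that differed by up to 0.64 within an array. Row 10544687, the row annotated with 1 transcript accession, read 0.21, 0.51 and 0.31 at 8 days, -0.01, 0 and 0 at 16 days and -0.68, -0.27 and -0.70 at 24 days. It fell 1.86-fold from 8 to 24 days (-0.89 ± 0.13, adjusted p = 0.000204) with no overlap between ages. Rows 10462136 and 10528170, which list that accession and several others, changed by -0.21 ± 0.16 and -0.15 ± 0.13 over the same span and did not pass (adjusted p = 0.30 and 0.34). The mouse genome holds processed copies of both Cycs and Slc25a5, and which sequences each row reads cannot be told from these files. The 3 rows of Slc25a5, by contrast, differed by at most 0.09 in any array.

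**Figure D2:**
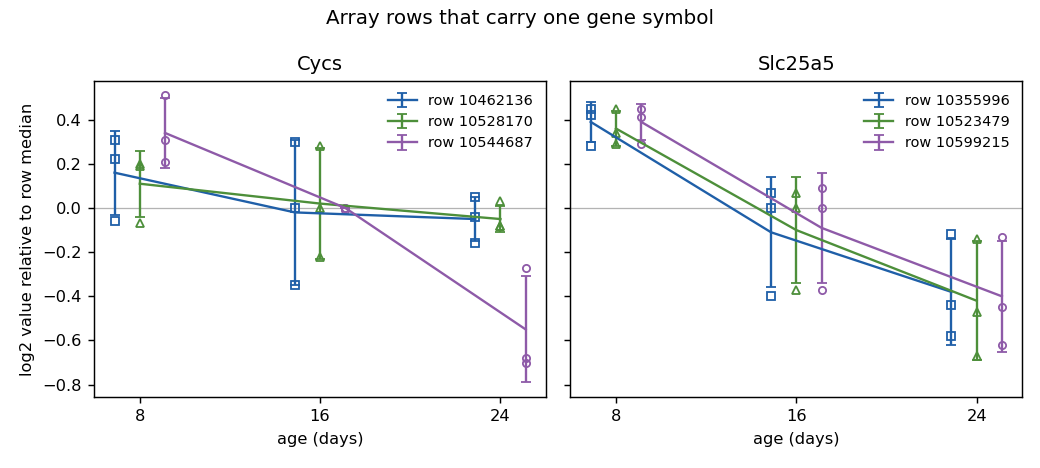
Centred log2 value (y axis) of the 3 array rows each of Cycs and Slc25a5 at 8, 16 and 24 days (x axis), with points for single arrays, lines for means and bars for the SD of 3 arrays. Of the Cycs rows, 10544687 falls by 0.89 from 8 to 24 days while 10462136 and 10528170 move by 0.21 or less, and the 3 Slc25a5 rows run together.

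Among the ADP/ATP carriers the testis form passed in no comparison and both somatic forms fell. Slc25a31 on chromosome 3 (gene ID 73333), the carrier of meiotic germ cells, read -0.31, -0.06 and 0.02 at 8 days, -0.06, 0.02 and 0.19 at 16 days and -0.12, 0 and 0 at 24 days. The ages overlapped throughout. Its changes were 0.17 ± 0.11 (95% interval -0.08 to 0.41), -0.09 ± 0.11 (-0.34 to 0.16) and, from 8 to 24 days, 0.08 ± 0.11 (-0.17 to 0.32), with adjusted p of 0.354, 0.520 and 0.564. The upper bound of 0.32 for the whole span lay far below the smallest rise among the other 4 testis forms, 2.35 in Cyct. Slc25a31 was read by 1 array row, and centred values hold no level. An unchanged transcript and a row near background therefore cannot be told apart here. Slc25a4 on chromosome 8 (gene ID 11739), the carrier best known from heart and skeletal muscle, read 0.40, 0.50 and 0.36 at 8 days, 0, -0.13 and 0 at 16 days and -0.43, -0.29 and -0.32 at 24 days. No ages overlapped, and the SD was 0.07 at each of them. At 16 days, however, replicates 1 and 3 were blank cells read as 0, so that SD is not a measured spread. Slc25a4 fell 1.37-fold and then 1.24-fold in the shorter intervals (-0.46 ± 0.08, adjusted p = 0.00329, and -0.31 ± 0.08, adjusted p = 0.0206), the latter not passing with arrays centred on their medians (adjusted p = 0.105), with blanks left missing (adjusted p = 0.246) or without 16 days replicate 1 or 3 or 24 days replicate 1 (adjusted p = 0.0672 to 0.0878). X-linked Slc25a5 (gene ID 11740), the carrier of most dividing cells, read 0.29, 0.45 and 0.39 at 8 days, 0, -0.38 and 0.08 at 16 days and -0.45, -0.13 and -0.63 at 24 days. Its 24-day replicate 2 lay within the range of 16 days. From 8 to 24 days Slc25a5 fell 1.71-fold (-0.78 ± 0.15, adjusted p = 0.00145), close to the 1.70-fold fall of Slc25a4 (-0.76 ± 0.08, adjusted p = 3.66e-05). Its fall from 8 to 16 days (-0.48 ± 0.15, adjusted p = 0.0437) did not pass when any array of 8 days, replicate 1 or 2 of 16 days or replicate 1 of 24 days was left out (adjusted p up to 0.14). It did not pass either with arrays centred on their medians (-0.44, adjusted p = 0.0822), with blanks left missing (-0.53, adjusted p = 0.064) or without the 2 arrays that stood apart (-0.38, adjusted p = 0.125). The change of -0.30 ± 0.15 from 16 to 24 days did not pass (adjusted p = 0.145). That later change passed without 16 days replicate 2 (-0.44, adjusted p = 0.0366), without the 2 arrays that stood apart (-0.44, adjusted p = 0.0367) and with array weights (-0.43, adjusted p = 0.0429).

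In the COX6B pair too the testis form rose and the somatic form fell. COX6B sits on the intermembrane face of cytochrome c oxidase, near where cytochrome c docks. Cox6b2 (gene ID 333182), its testis form, read -2.20, -1.99 and -2.30 at 8 days, 0, 0.63 and -0.17 at 16 days and 0.81, 0.84 and 0.94 at 24 days. No ages overlapped, and the 3 arrays of 16 days spread most, with replicate 2 the highest. Cox6b2 rose 4.97-fold from 8 to 16 days (2.31 ± 0.18, adjusted p = 1.45e-05) and 1.64-fold from 16 to 24 days (0.71 ± 0.18, adjusted p = 0.0147), the latter not passing without 16 days replicate 1 (0.64, adjusted p = 0.0623) or with blanks left missing (0.64, adjusted p = 0.0502). Cox6b1 (gene ID 110323), the somatic form on the same chromosome 7, read 0.28, 0.35 and 0.37 at 8 days, 0.02, -0.30 and 0 at 16 days and -0.63, -0.56 and -0.57 at 24 days. All 3 arrays of an age lay below all 3 of the age before. Cox6b1 fell 1.35-fold and then 1.41-fold (-0.43 ± 0.10, adjusted p = 0.0108, and -0.49 ± 0.10, adjusted p = 0.00529), in all 1.90-fold (-0.92 ± 0.10, adjusted p = 3.17e-05). Cox6b2 rose 8.13-fold over the same span (3.02 ± 0.18, adjusted p = 6.23e-07).

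Cox8c had the largest fitted rise of the 10 genes in the first interval and over the whole span. Cox8c on chromosome 12 (gene ID 75483), a testis form of subunit VIII, read -2.71, -3.62 and -3.01 at 8 days, 0, 0.54 and -0.19 at 16 days and 0.81, 0.45 and 0.96 at 24 days. It rose 9.38-fold from 8 to 16 days (3.23 ± 0.25, adjusted p = 1.32e-05), which placed it at rank 93 of 19935 genes, and 14.4-fold to 24 days (3.85 ± 0.25, adjusted p = 1.05e-06). The arrays of 16 and 24 days overlapped, and the change between them of 0.62 ± 0.25 did not pass (adjusted p = 0.0806). It passed without 8 days replicate 2 (0.62, adjusted p = 0.0427), without 16 days replicate 2 (0.84, adjusted p = 0.0262), without the 2 arrays that stood apart (0.84, adjusted p = 0.0159) and with array weights (0.79, adjusted p = 0.0217). Its ubiquitous relative Cox8a read 0.53, 0.43 and 0.31 at 8 days, 0.02, -0.12 and 0 at 16 days and -0.87, -0.76 and -0.63 at 24 days. Cox8a thus fell at each step, 2.26-fold in all (-1.18 ± 0.10, adjusted p = 5.01e-06). Cox8b, the form of heart, muscle and brown fat, changed by 0.01, -0.06 and -0.05 in the 3 comparisons and passed in none (adjusted p = 0.986, 0.643 and 0.69).

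A ratio of testis form to partner was formed within each array, which leaves out array scaling, and its change was tested in the same limma fit over all genes. The ratio rose in 5 of 5 pairs from 8 to 16 days, 3 of 5 from 16 to 24 days and 5 of 5 from 8 to 24 days. Of all single genes 10.4%, 13.2% and 19.2% rose in these comparisons. No such share was computed over ratios of other gene pairs. The counts are not independent, since the shorter intervals add up to the whole span and both carrier pairs share Slc25a31. Because the values are centred, each states how a ratio changed and not which form was more abundant. Pdha2 less Pdha1 was -2.45, -2.91 and -2.63 at 8 days, 0, 0.61 and 0 at 16 days and 1.15, 1.18 and 1.18 at 24 days. This ratio rose 7.29-fold in the first interval (2.87 ± 0.17, adjusted p = 2.34e-06), 1.96-fold in the second (0.97 ± 0.17, adjusted p = 0.0028) and 14.3-fold in all (3.84 ± 0.17, adjusted p = 1.02e-07). Cox6b2 less Cox6b1 was -2.48, -2.34 and -2.67 at 8 days, -0.02, 0.93 and -0.17 at 16 days and 1.44, 1.40 and 1.51 at 24 days. It rose 6.69-fold (2.74 ± 0.24, adjusted p = 3.08e-05), then 2.31-fold (1.21 ± 0.24, adjusted p = 0.00496) and in all 15.4-fold (3.95 ± 0.24, adjusted p = 6.76e-07). The ages of both ratios did not overlap, with 2 of the 3 Pdha2 cells at 16 days blank and read as 0. Cyct less Cycs was -2.30, -2.0 and -2.24 at 8 days, -0.62, 0.19 and -0.19 at 16 days and 0.58, 0.80 and 0.37 at 24 days. It rose 3.92-fold (1.97 ± 0.19, adjusted p = 6.35e-05), 1.73-fold (0.79 ± 0.19, adjusted p = 0.0118) and in all 6.78-fold (2.76 ± 0.19, adjusted p = 1.58e-06). The whole rise was 2.55, 2.50 or 3.24 on the log2 scale with each of the 3 Cycs rows as the partner, and against row 10462136 the later interval did not pass (0.61, adjusted p = 0.0591).

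The carrier ratios moved least, and their change came with the partners' fall, since Slc25a31 itself passed in no comparison. Slc25a31 less Slc25a4 was -0.71, -0.56 and -0.33 at 8 days, -0.06, 0.15 and 0.19 at 16 days and 0.32, 0.29 and 0.32 at 24 days. It rose 1.54-fold (0.63 ± 0.11, adjusted p = 0.00274) and in all 1.79-fold (0.84 ± 0.11, adjusted p = 0.000119), and its change of 0.22 ± 0.11 from 16 to 24 days did not pass (adjusted p = 0.154). Against Slc25a5 the values were -0.60, -0.51 and -0.37, then -0.06, 0.41 and 0.12, then 0.33, 0.13 and 0.63. This ratio rose 1.56-fold (0.64 ± 0.15, adjusted p = 0.0114) and in all 1.81-fold (0.86 ± 0.15, adjusted p = 0.000794), with no pass from 16 to 24 days (0.21 ± 0.15, adjusted p = 0.283). The arrays of 16 and 24 days overlapped for the ratio to Slc25a5 and not for that to Slc25a4. Without the 2 arrays that stood apart, the rise against Slc25a5 from 8 to 16 days was 0.46 and did not pass (adjusted p = 0.0805). Every other rise that passed also passed with each single array left out and without those 2 arrays.

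**Figure D3:**
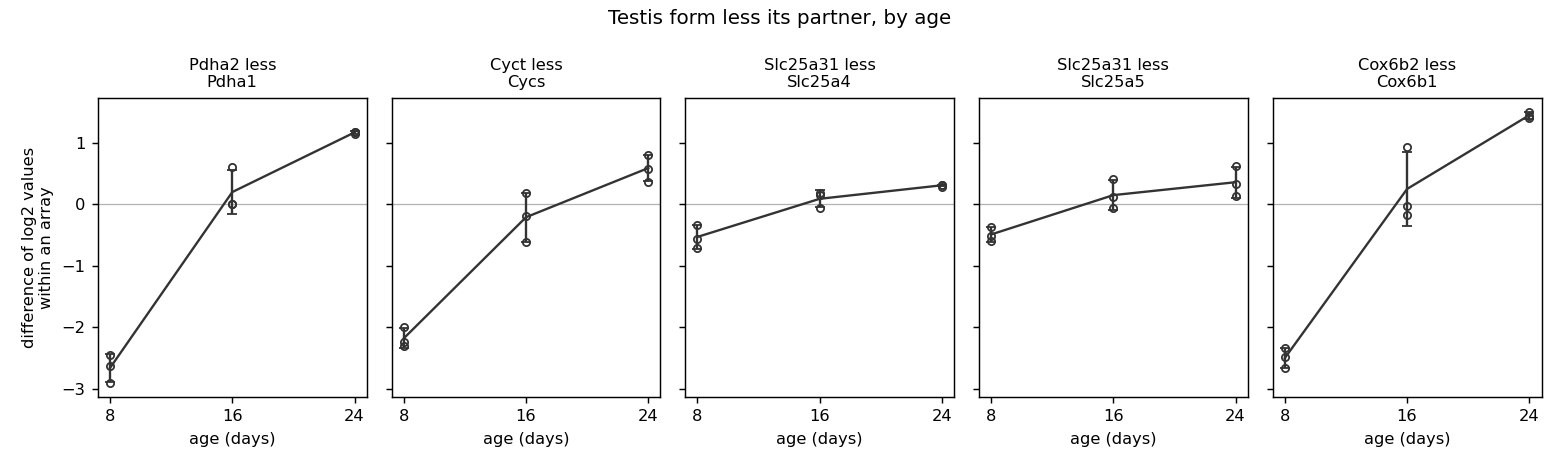
Difference of centred log2 values, testis form less partner, in each array (y axis) at 8, 16 and 24 days (x axis), with points for single arrays, lines for means and bars for the SD of 3 arrays. The differences for Pdha2, Cyct and Cox6b2 climb by 2.76 to 3.95 between 8 and 24 days and those for Slc25a31 by 0.84 and 0.86.

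For 3 testis forms the rise was larger in the first interval than in the second. The change from 16 to 24 days less that from 8 to 16 days was -1.57 for Pdha2 (limma adjusted p = 0.00117), -1.60 for Cox6b2 (adjusted p = 0.0152) and -2.61 for Cox8c (adjusted p = 0.00591). For Cyct it was -1.19 and did not pass (adjusted p = 0.142). None of the 5 partners passed this test, and among the ratios Pdha2 to Pdha1 did (-1.90, adjusted p = 0.00406). Those of Cyct to Cycs (-1.18, adjusted p = 0.08) and Cox6b2 to Cox6b1 (-1.54, adjusted p = 0.0687) missed the threshold. The former passed without 16 days replicate 1 (-1.59, adjusted p = 0.0213). The latter passed without 16 days replicate 2 (-0.85, adjusted p = 0.0481), without 16 days replicate 3 (-1.95, adjusted p = 0.0336) and with blanks left missing (-2.90, adjusted p = 0.00115).

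Of 12 other measured genes of the pyruvate dehydrogenase complex, its kinases and phosphatases and pyruvate import, 1 rose and none fell from 8 to 16 days, 3 rose and 4 fell from 16 to 24 days, and 5 rose and 5 fell over the whole span, with medians of 0.01, -0.10 and -0.15. Of all genes 24.7%, 33.3% and 54.4% were called in either direction. Dlat, the E2 acetyltransferase at the core of the complex, rose 2.12-fold from 8 to 24 days (1.08 ± 0.13, adjusted p = 5.64e-05). Pdk2, a kinase that switches E1 off by phosphorylating its alpha subunit, rose 2.52-fold from 16 to 24 days (1.33 ± 0.17, adjusted p = 0.000464). Its arrays of 24 days read 1.63, 0.86 and 1.45, all above the highest value at the earlier ages, 0.05. In the same interval Pdk1 changed by -0.68 and Pdpr, a regulatory subunit of the E1 phosphatase, by -0.58, and both fell.

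Among 15 other cytochrome c oxidase subunits, 1 rose and 3 fell from 8 to 16 days, 2 rose and 3 fell from 16 to 24 days, and 4 rose and 3 fell from 8 to 24 days. The shares of all genes were 10.4% and 14.3%, 13.2% and 20.1%, and 19.2% and 35.2%. A further pair with a testis form lay in this list. Cox7b2, the testis relative of the subunit VIIb gene Cox7b, read -2.22, -1.58 and -2.01 at 8 days, 0, 0.72 and -0.20 at 16 days and 0.51, 0.81 and 0.74 at 24 days. It rose 6.14-fold in all (2.62 ± 0.23, adjusted p = 9.21e-06), whereas X-linked Cox7b fell 2.62-fold (-1.39 ± 0.16). Cox4i1 and Cox4i2, the forms of subunit IV, passed in no comparison. Of 15 assembly factors none rose, and 0, 2 and 5 fell in the 3 comparisons, where 14.3%, 20.1% and 35.2% of all genes fell. Those falls were small, the largest -0.50 in Cox18 from 16 to 24 days. From 8 to 24 days Surf1 changed by -0.45. With arrays centred on their medians Surf1 changed by -0.33 and did not pass (adjusted p = 0.0514), while 1 assembly factor rose and 1 fell over that span.

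Of 11 genes of complex III and cytochrome c maturation, 4 rose and 5 fell from 8 to 24 days, among them Hccs, the X-linked lyase that attaches heme to cytochrome c (2.53-fold lower, -1.34 ± 0.14), and Uqcrc1, a core subunit (0.71 higher). Of all genes 19.2% rose and 35.2% fell over that span. Of 6 measured genes that act with cytochrome c in apoptosis, 2 rose and 4 fell over that span. Diablo, released from mitochondria along with cytochrome c, rose by 1.26 ± 0.12 in the first interval (2.40-fold, adjusted p = 7.28e-05). Its target Xiap, an X-linked caspase inhibitor, changed by -0.81 ± 0.17 in that interval and -1.29 over the whole span, and fell in both. Apaf1, which cytochrome c binds to activate caspase 9, fell by 0.86 from 8 to 24 days.

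Of 15 measured genes of adenine nucleotide and phosphate exchange, 3 rose and 9 fell from 8 to 24 days, with a median of -0.41, where 19.2% of all genes rose and 35.2% fell. Vdac2, an outer membrane channel for ATP and ADP, rose 2.40-fold (1.27 ± 0.11). The falls included Ak4, a mitochondrial adenylate kinase (-1.27), and Ppif, the matrix cyclophilin of the permeability transition (-0.99). Of 16 ATP synthase subunit genes 2 rose and 4 fell from 8 to 24 days, with a median of -0.12, again beside 19.2% and 35.2% of all genes. Its largest fall was in Atp5g2, a gene of the membrane ring subunit (-0.94).

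In a list of other mitochondrial proteins of germ cells, the measured genes apart from Gk2 rose from 16 to 24 days and not from 8 to 16 days. All 5 measured members of that list rose from 16 to 24 days, with a median of 2.40, where 13.2% of all genes rose. From 8 to 16 days 1 of them rose, where 10.4% of all genes did. Gk2, a testis form of glycerol kinase, was that gene (5.68 ± 0.18 in the first interval and 1.22 ± 0.18 in the second). Smcp, a protein of the sperm mitochondrial capsule that is also among the spermatid markers above, rose 47.6-fold and Spata19, a sperm mitochondrial protein, 20.4-fold in the second interval, in which Pdha2 rose 1.53-fold and Cox6b2 1.64-fold. Oxct2a, a testis ketone body enzyme, rose by 2.40 ± 0.30 in the same interval. Cox7b2, counted above with the oxidase subunits and not in this list, had the other timing. It rose by 2.11 ± 0.23 from 8 to 16 days (limma adjusted p = 0.000153). Its change of 0.51 ± 0.23 from 16 to 24 days did not pass (adjusted p = 0.114).

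Pdha1 and Slc25a5 are X-linked, and 15 other X-linked mitochondrial genes were measured. Cox7b, Hccs and Pdk3 among them were also counted in the lists above. Of the 15 genes 9 fell from 8 to 16 days, 6 from 16 to 24 days and 10 from 8 to 24 days, and none rose, where 14.3%, 20.1% and 35.2% of all genes fell. The medians were -0.48, -0.33 and -0.83, next to -0.68, -0.36 and -1.04 for Pdha1 and -0.48, -0.30 and -0.78 for Slc25a5. With arrays centred on their medians 1 of the 15 rose in each of the later 2 comparisons, and 7, 5 and 10 fell. Hsd17b10, a mitochondrial dehydrogenase and RNase P subunit, fell by 1.02 ± 0.18 and Apool, a cristae protein, by 0.84 from 8 to 16 days, the latter with adjusted p up to 0.0671 where a single array was left out (8 days replicate 2 or 3, 16 days replicate 2). The autosomal partners Slc25a4 and Cox6b1 had falls of similar size, -0.76 and -0.92 from 8 to 24 days, and whether X-linked and autosomal partners differ was not tested.

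**Figure D4:**
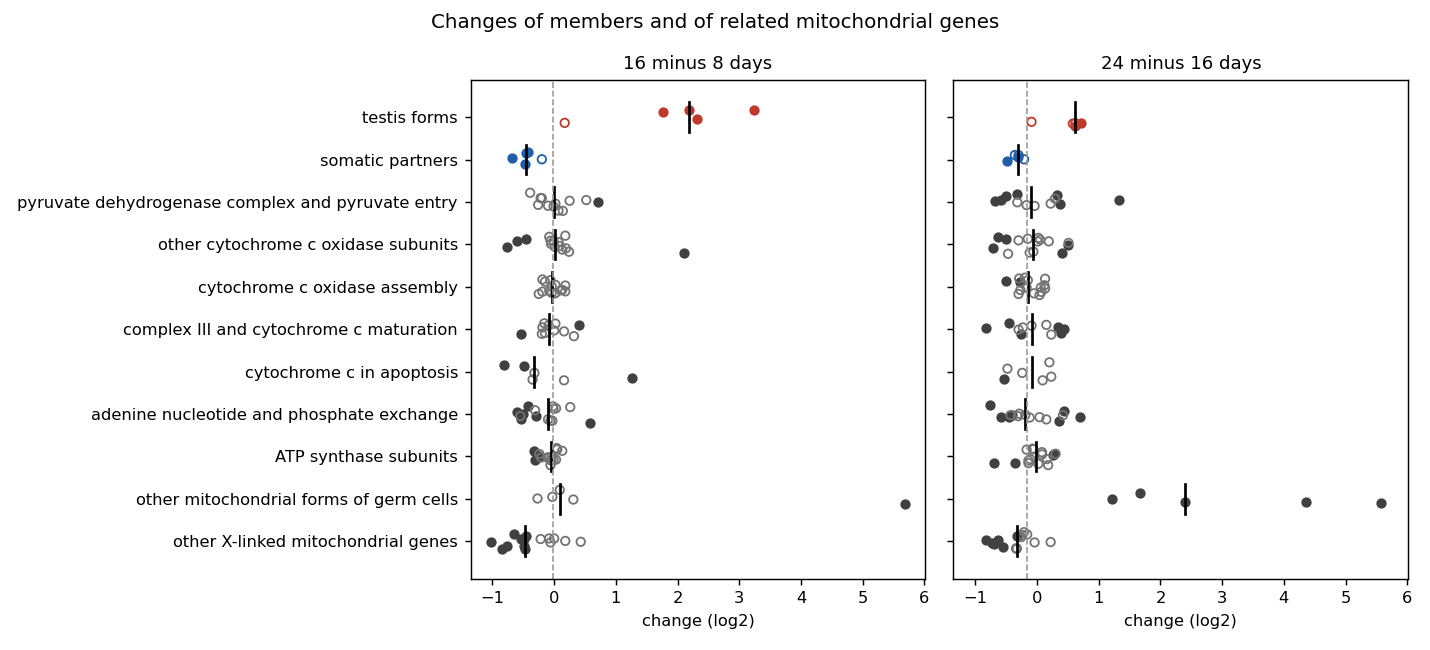
Change on the log2 scale (x axis) of every measured gene in the testis forms, the partners and the 9 related gene lists (y axis). The panels show the changes from 8 to 16 days and from 16 to 24 days. Filled points are past an adjusted p of 0.05 and open points are not. Black ticks mark list medians and a dashed line the median of all genes. The testis forms lie to the right from 8 to 16 days and the list of other germ cell forms from 16 to 24 days. Cox7b2 is plotted with the oxidase subunits. Most of the X-linked list lies to the left in both panels.

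Among the testis forms, Pdha2 and Cox6b2 had nearly the same profile, with a root mean square difference of 0.19 over the 9 arrays, on the centred log2 scale. Cyct lay 0.36 from Pdha2 and 0.48 from Cox6b2. Cox8c lay 0.63 to 0.88 from these 3, and Slc25a31 1.13 or more from all 4. The somatic partners differed among themselves by 0.15 to 0.27. Over 18588 other named genes, the closest to Pdha2 were Rfx4 (0.15), Prok2 (0.16) and Taf7l2 (0.18). Those closest to Cox6b2 were Taf7l2 (0.14), Rfx4 (0.15) and Cfap54 (0.16), so 2 genes were among the nearest 3 of both. Cyct was nearest to Cep290 (0.23), Wdr35 (0.24) and Mybl1 (0.25), and Cox8c to Ybx2 (0.18), Abcc12 (0.23) and Agbl2 (0.24). Few genes lay that close. Within 0.2 there were 6 genes for Pdha2, 5 for Cox6b2, 1 for Cox8c and 0 for Cyct. Profiles with small changes have many neighbours, 3989 genes within 0.2 for Slc25a31 (nearest Fbxo9, Gtf2e1 and Abitram), 1170 for Pdha1 (Cnp, Ptgfrn and Fam114a1) and 1381 for Slc25a5 (Pip5k1b, Brwd3 and Taldo1). All these distances rest on the same 9 arrays, so arrays that stand apart are shared by both genes of a pair.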

How the data were processed

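Total RNA of whole testis was extracted with QIAzol and an miRNeasy kit and made into biotin-labelled whole-transcript cDNA, per the labels' protocols. The authors deposited 28815 rows of values for 9 arrays, from -6.07 to 6.05, taken here as log2 values centred on each row's median array. The log base was inferred from the range and the centring from the row medians. Background correction, normalization and summary are not given in the sources used here, and no build is named with the values. All 38964 blank cells were read as 0, because the median of every row is then 0. Centring removes levels and detection limits, and precision is limited by how many arrays there are.

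Rows with exactly 1 symbol (21780) were averaged per gene, leaving 19935 genes, and rows with several symbols (1605) or none (5430) were left out. Genes, and the 5 within-array differences of a testis form and its partner, entered limma's lmFit and eBayes (limma 3.58.1, R 4.3.3), with 1 mean for each age and the spread shared by all 9 arrays (residual degrees of freedom 6, prior 3.82). The 2-sided p-values had Benjamini-Hochberg adjustment across the whole table, with a threshold of 0.05. "Rose" and "fell" refer to changes past it. The code was tested on simulated data.

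The genes, the 9 pathway lists (110 of 123 entries measured, 107 distinct genes, 3 of them in more than 1 list) and the 12 marker lists were chosen with earlier results of these data known. Named were all 10 genes, Cox8a, Cox8b, Cox4i1 and Cox4i2, up to 3 genes of each list with the largest called changes in a comparison, and for 7 genes the 3 nearest profiles. Promoters and chromosomes came from RefSeq (GRCm38.p6). Alternatives were the scaling, the blanks, the rows of a gene, array weights, robust eBayes, a minimum change of 1.5-fold, the arrays in the fit, the replicate number as a block and each array left out.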

Additional observations from a re-analysis of the deposited data

How the results depend on the processing

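The alternatives turned no direction around among the ratios of testis form to partner, and none of their called rises was lost when any single array was left out. Tested against a change of 1.5-fold, the rises of Slc25a31 to Slc25a4 (0.63) and to Slc25a5 (0.64) from 8 to 16 days no longer passed, nor did those of Pdha2 to Pdha1 (0.97), Cyct to Cycs (0.79) and Cox6b2 to Cox6b1 (1.21) from 16 to 24 days, nor those of Slc25a31 from 8 to 24 days (0.84 and 0.86). That test called 696, 793 and 3578 genes in the 3 comparisons, against 4914, 6645 and 10840. With blanks left missing, Pdha2 to Pdha1 from 16 to 24 days was 0.56 and did not pass (limma adjusted p = 0.0555). Against Cycs row 10462136 the Cyct ratio was 0.61 (adjusted p = 0.0591), and without the 2 arrays with high olfactory receptor genes Slc25a31 to Slc25a5 from 8 to 16 days was 0.46 (adjusted p = 0.0805). With single arrays left out, the genes called numbered 3741 to 5081, 3669 to 8070 and 9341 to 11240. The lowest count from 16 to 24 days came without 16 days replicate 1, and 3811 were called without 24 days replicate 1. The cause was not tested. The deposited values give no signal over background, so dim genes could not be set apart.

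The replicate number of the titles was tried as a block on the 6 numbered arrays. Same-numbered arrays did not deviate together (correlations of -0.461 to 0.197 over 6 pairs), and the 8 days replicate 1 array was closer to 16 days replicate 2 (0.596) than to any array of its own number, so the numbers were not taken to pair samples. With the replicate block and 3 fewer arrays, 1971 genes were called from 8 to 16 days and 1294 from 16 to 24 days. Slc25a31 to Slc25a5 was 0.73 from 8 to 16 days (adjusted p = 0.0608), and from 16 to 24 days Pdha2 to Pdha1 was 0.86 (adjusted p = 0.0926) and Cox6b2 to Cox6b1 0.97 (adjusted p = 0.0628), none of which passed. Of single genes, the called falls of Pdha1 (adjusted p = 0.0766), Slc25a4 (0.102), Slc25a5 (0.143) and Cox6b1 (0.166) from 8 to 16 days were lost. From 16 to 24 days the rises of Pdha2 (adjusted p = 0.0832) and Cox6b2 (0.161) and the falls of Slc25a4 (0.281) and Cox6b1 (0.17) were lost, and Cyct passed (0.84, adjusted p = 0.0218). From 8 to 24 days the fall of Cycs was lost (adjusted p = 0.178), while 4 testis forms rose and 4 partners fell. The block and the 3 fewer arrays cannot be told apart in this fit.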
